A study of Mus musculus with 6 samples.

Results

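The peaks listed on the mitochondrial sequence were placed gene by gene on 10 mitochondrially encoded protein-coding genes: mt-Nd1, mt-Nd2, mt-Co1, mt-Co2, mt-Atp6, mt-Co3, mt-Nd4, mt-Nd5, mt-Nd6 and mt-Cytb. They come from a map of m6A, or N6-methyladenosine, an adenosine in RNA that carries a methyl group on its base. The list held 42 mitochondrial peaks among 42886 in all (0.0979%). The genes were chosen by name from a fixed set of 12 intervals, which also holds the 12S rRNA gene mt-Rnr1 and the 16S rRNA gene mt-Rnr2. A gene's covered share is the percentage of its bases that lie under peaks.

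The mice were adult wild-type littermates on a C57BL/6 background, and the RNA came from dissected midbrain and striatum. There were 3 libraries of RNA pulled down with an m6A antibody in 2 rounds (MeRIP) and 3 input libraries that were not pulled down, and all 6 were made from RNA treated with RiboMinus to deplete rRNA. The 2 brain areas are labelled jointly and were not separated. The list gives no expression, so tissue markers could not be checked. A single list of peak positions in build mm9 stands for all 6 libraries, with no height, strand or value per library, so sequencing depth is unknown, no value below has a replicate error, and no difference between genes could be tested against replicates.

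Mitochondria carry a small circular genome that encodes core subunits of the respiratory chain, together with the rRNAs and tRNAs needed to translate them. Both strands are transcribed into long precursor RNAs, and tRNA genes between the coding genes mark most of the places where these precursors are cut into separate transcripts. Neurons of the midbrain and striatum depend heavily on oxidative phosphorylation, and mitochondrial transcripts are abundant in brain RNA. Since the list has neither heights nor input counts, RNA abundance and m6A enrichment cannot be told apart in the coverage described here.

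Peaks lay in 6 of the 10 protein-coding genes, namely mt-Nd1, mt-Nd2, mt-Nd4, mt-Nd5, mt-Nd6 and mt-Cytb. No peak was listed in mt-Co1, mt-Co2, mt-Atp6 or mt-Co3. Together the 10 genes span 10539 bases, of which 4850 (46.0%) were covered. Per gene the covered share ran from 0% to 100%, with a median of 30.2% over the 10 genes. The 6 genes that held a peak were covered over 70.8% of their joint length, from 19.0% in mt-Nd1 to 100% in mt-Nd5 and mt-Nd6. With both rRNA genes included, 8 of the 12 intervals held a peak, and 48.0% of their joint 13076 bases was covered. The share of nuclear genes that hold a peak was not determined, so these counts cannot be called high or low.

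**Figure D1:**
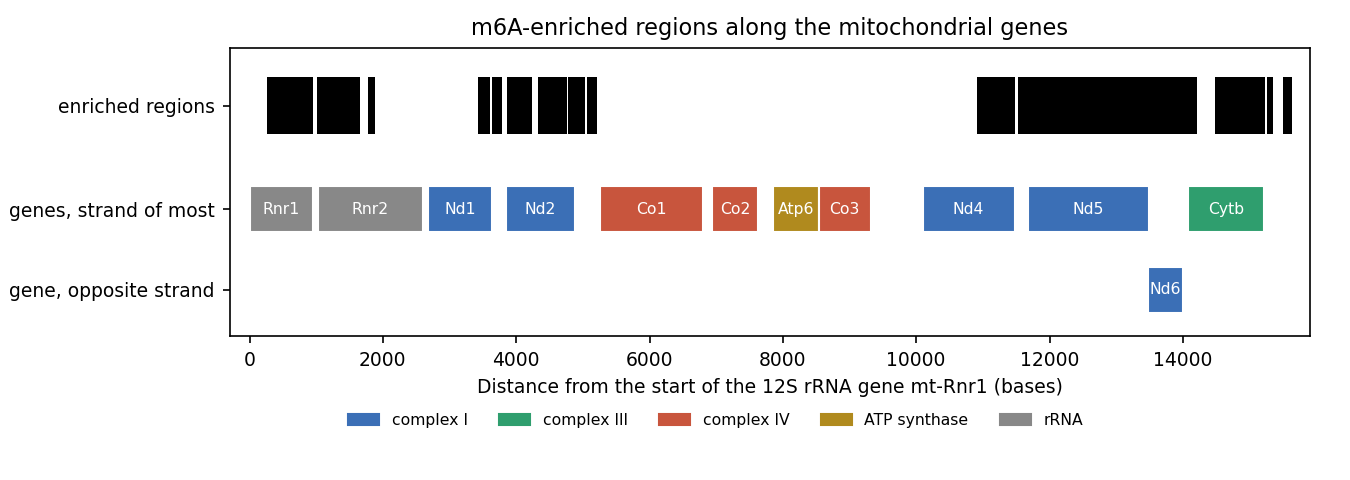
Enriched regions (black bars, touching peaks joined) above the 12 gene intervals, plotted by distance in bases from the start of mt-Rnr1; mt-Nd6 stands on a row of its own because it is read from the opposite strand. The 14 regions fall over both rRNA genes, from the 3' part of mt-Nd1 to short of mt-Co1, and from the 3' part of mt-Nd4 to past mt-Cytb, with no region over the 4 genes from mt-Co1 to mt-Co3.

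By the protein complex that the genes serve, all 5 listed genes of complex I, the NADH dehydrogenase at the entry of the respiratory chain, held peaks. Their joint length of 5702 bases was covered over 3981 bases (69.8%). The single gene of complex III, mt-Cytb, was covered over 869 of 1144 bases (76.0%). None of the 3 genes of complex IV, the cytochrome c oxidase that passes electrons to oxygen, held a peak in 3013 bases. The listed ATP synthase gene, mt-Atp6, held none in 681 bases. The 4 genes without a peak are neighbours on the map, and the stretch without peaks that holds them also takes in part of mt-Nd4, a complex I gene.

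Within complex I the covered share differed widely between genes. In map order it was 19.0% in mt-Nd1, 86.8% in mt-Nd2, 41.3% in mt-Nd4, 100% in mt-Nd5 and 100% in mt-Nd6. All 5 encode core membrane subunits of the proton-pumping arm of the complex. Region ends lay on a grid of 25 bases, so each end is known only to that step. Moving every end inwards or outwards by 25 bases kept the order of the 6 genes that held peaks.

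**Figure D2:**
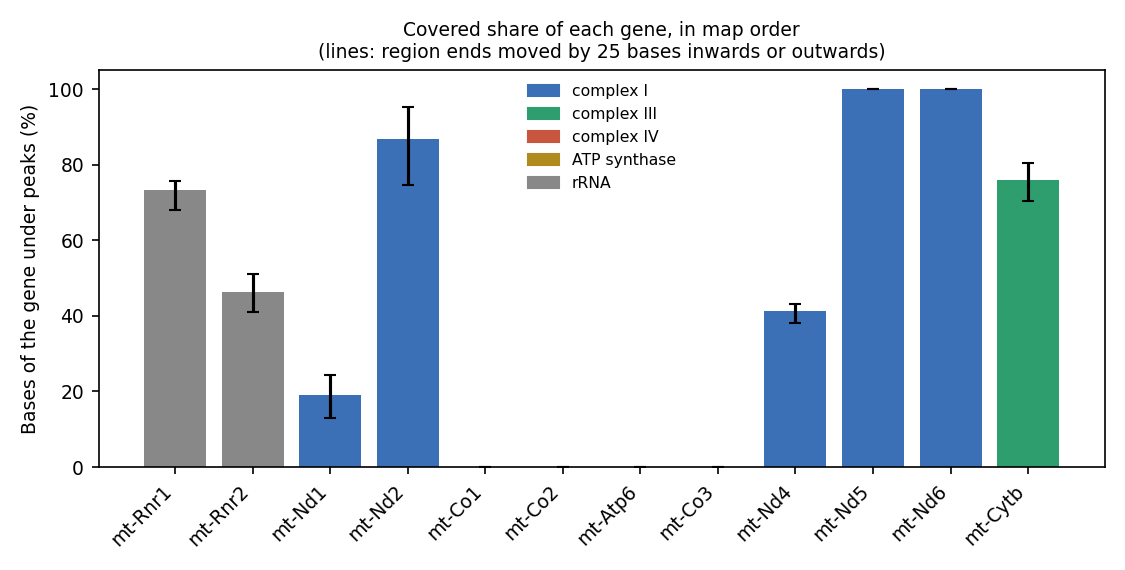
Covered share (percent of the gene's bases under peaks) of the 12 genes in map order, coloured by complex; lines show the share with region ends moved 25 bases inwards (lower end) or outwards (upper end) and are not replicate errors. mt-Nd5 and mt-Nd6 stand at 100%, mt-Nd2 at 86.8% and mt-Cytb at 76.0%, and the 4 genes from mt-Co1 to mt-Co3 stand at 0%.

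The gene mt-Nd5 (ENSMUSG00000064367.1; mm9 chrM:11742-13565, 1824 bases) was covered from its first to its last base. It encodes the largest of the complex I subunits made in mitochondria. A single enriched region, chrM:11601-14275, held all of it. That region was 2675 bases wide and was listed as 14 peaks, 11 of which touched mt-Nd5. It spread over 3 genes, with 1824 bases in mt-Nd5, 519 in mt-Nd6 and 131 in mt-Cytb, and 215 bases lay in none of the 12 intervals. None of the 23432 nuclear regions was as wide.

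The gene mt-Nd6 (ENSMUSG00000064368.1; chrM:13552-14070, 519 bases) was also covered throughout, by 3 peaks of the same region. It is the protein-coding gene of the set that is read from the strand opposite to the other 9, and its interval shares 14 bases with the end of mt-Nd5. Without strand in the list, RNA of mt-Nd6 and RNA of the opposite strand across the same bases cannot be told apart. Leaving mt-Nd6 out, the other 9 genes were covered over 43.3% of their joint length.

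The gene mt-Cytb (ENSMUSG00000064370.1; chrM:14145-15288, 1144 bases) encodes cytochrome b, the catalytic membrane subunit of complex III. It was covered over 869 bases by 5 peaks in 2 regions. The first 131 bases belonged to the region that holds mt-Nd5, and 738 bases belonged to a region of 750 bases, chrM:14551-15300. Between them lay 275 bases with no peak, from base 132 to base 406 of the gene (24.0% of its length).

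The gene mt-Nd4 (ENSMUSG00000064363.1; chrM:10167-11544, 1378 bases) was covered in its 3' part only. Its first 809 bases (58.7%) held no peak, and bases 810 to 1378 lay without a break under 3 peaks. They formed a region of 575 bases, chrM:10976-11550, of which 569 bases were in the gene. Of the nuclear regions, 9.40% were as wide or wider.

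The gene mt-Nd2 (ENSMUSG00000064345.1; chrM:3914-4951, 1038 bases) was covered in 3 regions rather than as a single run. They were chrM:3926-4300 (375 bases), chrM:4401-4825 (425 bases) and chrM:4851-5100 (250 bases, of which 101 were in the gene). The 901 covered bases were broken by gaps of 100 and 25 bases inside the gene, and 12 bases at its 5' end were uncovered. This share depended most on the peak list: it was 100% with regions within 100 bases joined and 36.1% with only the peaks at or above the list's median width of 159 bases. No peak in the list is wider than 200 bases. In 14 of 14 mitochondrial regions the number of peaks was the fewest that such pieces allow, so in the 8 regions listed as several peaks, those of mt-Nd2 among them, a limit on peak width acts on pieces and not on whole regions.

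The gene mt-Nd1 (ENSMUSG00000064341.1; chrM:2751-3707, 957 bases) had the lowest share among genes with a peak. Its first 750 bases (78.4%) held none. Near the 3' end, 175 bases were covered by the region chrM:3501-3675, and after a gap of 25 bases the next region, chrM:3701-3850, covered the last 7. With region ends moved inwards by 25 bases the share was 13.1%, and with ends moved outwards 24.2%.

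Along the genes, the last base was covered in 6 of the 6 genes that held a peak and the first base in 3 of 6 (mt-Nd5, mt-Nd6 and mt-Cytb). This count rests on the 25-base step of the region ends. With ends moved inwards by 25 bases, mt-Nd1, mt-Nd4 and mt-Cytb lost their last base and both counts were 3 of 6; with ends moved outwards, the last base was covered in 6 and the first in 4. The last 20% of these genes was covered over 86.9% to 100%, with a median of 100%. The first 20% ranged from 0% in mt-Nd1 and mt-Nd4 to 100% in mt-Nd5 and mt-Nd6, with a median of 75.7%. The ends of mt-Nd5 and mt-Nd6 are not separate cases, since a single region holds both genes. The same region holds the first 131 bases of mt-Cytb, so all 3 covered first bases lie in it.

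**Figure D3:**
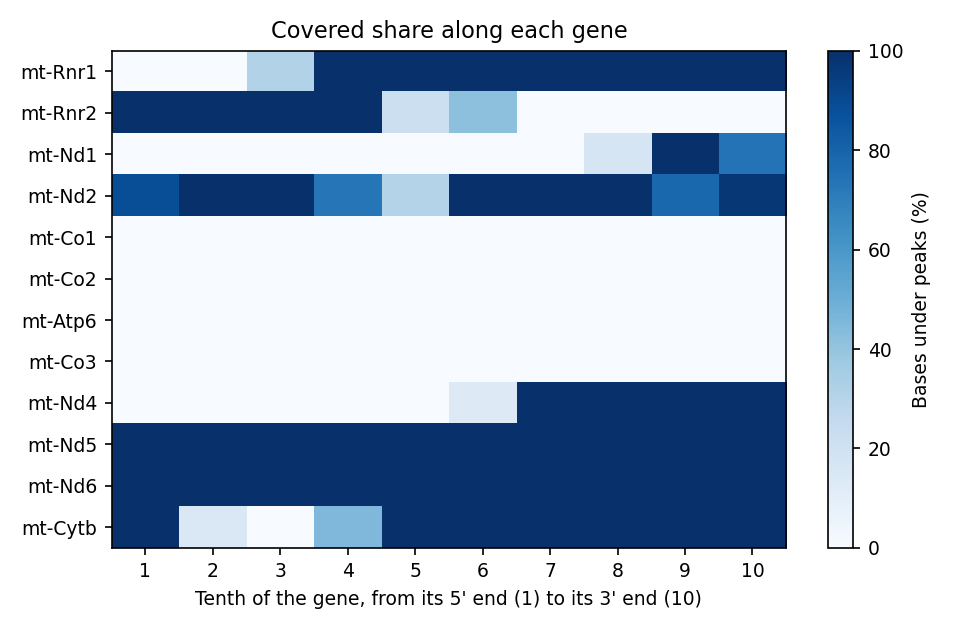
Covered share (percent, colour) in 10 equal parts of each of the 12 genes, from the 5' end to the 3' end of each gene as it is read. mt-Nd1 and mt-Nd4 are covered toward the 3' end only, mt-Rnr2 toward the 5' end only, and mt-Nd5 and mt-Nd6 throughout.

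The longest mitochondrial stretch without a peak, chrM:5276-10975, held 4 genes whole. These were mt-Co1 (ENSMUSG00000064351.1; chrM:5328-6872, 1545 bases), mt-Co2 (ENSMUSG00000064354.1; chrM:7013-7696, 684 bases), mt-Atp6 (ENSMUSG00000064357.1; chrM:7927-8607, 681 bases) and mt-Co3 (ENSMUSG00000064358.1; chrM:8607-9390, 784 bases). mt-Co1 encodes the catalytic subunit of cytochrome c oxidase, mt-Co2 the subunit that takes electrons from cytochrome c, mt-Co3 a further core subunit, and mt-Atp6 a subunit of the proton channel of ATP synthase. The stretch began 52 bases before mt-Co1 and ran on through the first 809 bases of mt-Nd4.

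The other 3 mitochondrial protein-coding genes have no interval in the set and were placed by gene order alone. In the RefSeq table of build GRCm38, whose intervals for all 12 genes are the same as those used here, ATP8 lies next to ATP6 on the side of COX2, and ND3 and ND4L lie between COX3 and ND4. Both places are within the stretch without a peak. The complex I genes ND3 and ND4L therefore held no listed peak, unlike the 5 complex I genes described above.

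The gene mt-Atp6 has a namesake in the nuclear genome. The same table lists on chromosome 1 a pseudogene, Gm10925, with mt-Atp6 among its other names and with its length of 681 bases. The pseudogene before it on the chromosome, Gm10222, is 297 bases long, the length of ND4L in that table; the sequences were not compared here. Neither the labels nor the list say how reads that fit both a mitochondrial gene and a nuclear copy were handled. Nuclear copies were looked up by gene name only, so other listed genes, with or without peaks, may have copies not found here. The part of such reads in the absence of listed peaks from mt-Co1 to mt-Nd4 was not tested. The values of these genes, and of the listed genes with peaks, are uncertain for that reason.

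Both rRNA genes held peaks although the RNA had been treated to deplete rRNA; which rRNAs the treatment removed was not measured here. mt-Rnr1 (ENSMUSG00000064337.1; chrM:70-1024, 955 bases), the RNA of the small mitochondrial ribosomal subunit, was covered over 699 bases (73.2%). Its first 256 bases were uncovered and the rest lay under 4 peaks of a single region. mt-Rnr2 (ENSMUSG00000064339.1; chrM:1094-2675, 1582 bases), the RNA of the large subunit, was covered over 732 bases (46.3%) in 2 regions. Here the uncovered part was at the 3' end, where the last 725 bases held no peak.

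Together both rRNA genes were covered over 56.4%, against 46.0% for the protein-coding genes. Of the 7200 covered mitochondrial bases, 67.4% lay in the 10 protein-coding genes, 19.9% in the rRNA genes and 12.8% outside the 12 intervals. These parts differ in length, with 10539 bases in the protein-coding genes and 2537 in the rRNA genes. The percentages therefore do not show that peaks concentrate in any part. A second stretch without a peak, chrM:1951-3500, joined the last 725 bases of mt-Rnr2 to the first 750 bases of mt-Nd1.

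Some of the sequence between the 12 intervals, where most tRNA genes lie, was covered too. The tRNA genes were assigned to these spans by gene order, and their own coverage was not determined. Of 9 spans between neighbouring intervals, 5 held covered bases, and 682 of the 2143 bases of all 9 (31.8%) were covered. The 9 spans also hold the protein-coding genes that have no interval in the set. ATP8 lies in the span from mt-Co2 to mt-Atp6 (230 bases), and ND3 and ND4L in that from mt-Co3 to mt-Nd4 (776 bases). Neither of these spans held a covered base, so the 31.8% is not a share of tRNA sequence alone. The span from mt-Nd2 to mt-Co1, with 5 tRNA genes by gene order (TrnW, TrnA, TrnN, TrnC and TrnY), was covered over 299 of 376 bases (79.5%). The span from mt-Nd4 to mt-Nd5, with TrnH, TrnS2 and TrnL2, was covered over 147 of 197 bases (74.6%). The span from mt-Nd1 to mt-Nd2, with TrnI, TrnQ and TrnM, was covered over 143 of 206 bases (69.4%).

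The short span from mt-Nd6 to mt-Cytb, which holds TrnE, was covered over all of its 74 bases. Between the rRNA genes, 19 of 69 bases in the span of TrnV were covered. The 4 spans without a peak hold 6 tRNA genes, beside the protein-coding genes ATP8, ND3 and ND4L. The tRNA genes are TrnL1 between mt-Rnr2 and mt-Nd1, and TrnS1, TrnD, TrnK, TrnG and TrnR between mt-Co1 and mt-Nd4. Past the end of mt-Cytb, where TrnT, TrnP and the non-coding control region follow, 237 bases in 3 regions were covered.

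Mitochondrial regions were set beside nuclear ones as a description, since a single list allows no test over libraries. The 14 mitochondrial regions had a median width of 312.5 bases (interquartile range 150 to 631 bases), against 225 bases (150 to 350 bases) for 23432 nuclear regions. Regions over 500 bases made up 5 of 14 mitochondrial regions (35.7%) and 11.5% of nuclear ones. Of the mitochondrial regions, 12 of 14 had another within 100 bases (85.7%), against 19.5% of nuclear regions. Mitochondrial genes lie end to end without introns, whereas distances between nuclear regions run across introns and untranscribed sequence. An intron can also break up a nuclear region. Neither the spacings nor the widths are therefore on an equal footing, and the same holds for the single regions set against nuclear ones above.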

How the data were processed

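The data are 1 deposited list of peak positions with 3 columns (chromosome, start, end). The submitters' processing notes name BWA 0.6.2-r126, SAMtools 0.1.18 and build mm9, with no role. What called the peaks, at which threshold, and whether the libraries were pooled is not given in the sources at hand. Starts were read as counted from 0 and are printed counting from 1. Touching peaks were joined into enriched regions and laid over the 12 gene intervals; an overlap of 1 base counted as holding a peak, and bases shared by neighbouring genes were counted once in joint shares. Every gene of the set is named. The genes and lists were chosen with earlier results of these data known. Ensembl identifiers matched for all 12 genes. No genome of mm9 was used, so no sequence or motif is given. Joining and counting were tested on 500 simulated sets and recovered 100% of them. Python 3.11.15, numpy 2.4.6, scipy 1.17.1 and matplotlib 3.10.9 were used.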

Additional observations from a re-analysis of the deposited data

How the results depend on the processing

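No paired analysis was possible because the peaks come without values for single libraries; leaving out a library was likewise impossible. The number of genes that held a peak was 6 with each overlap and width setting tried, and mt-Co1, mt-Co2, mt-Atp6 and mt-Co3 had no covered base in any of them. The joint share of the 10 genes, 46.0%, was 47.6% with regions within 100 bases joined, 41.0% when narrower peaks than the list's median were dropped, 43.3% with region ends moved 25 bases inwards and 48.0% with ends moved outwards; each change follows from adding or removing covered bases. Keeping only the wider peaks moved mt-Nd2 below mt-Cytb and mt-Nd4, at 36.1%. In regions listed as several peaks that setting acts on pieces and not on whole regions, so it does not sort regions by width. The counts of genes with the first or last base covered were added after seeing the data. With region ends moved by 25 bases, 3 or 6 genes had the last base covered and 3 or 4 the first. Depth is unknown, so an unlisted peak does not show that m6A was absent.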
